A study of Mus musculus with 3 samples.

Results

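The genes described here are fibronectin and a set of matricellular and fibre-associated proteins, 10 in all: Fn1, Postn, Tnc, Thbs1, Thbs2, Sparc, Fbln1, Fbln5, Fbn1 and Spp1. They were chosen by name, and every probe set that the platform annotation gives to one of them alone was read. That gave 18 probe sets for 8 of the 10 genes, out of 18194 genes named on the array. Fbn1 and Spp1 have no probe set under their names in the annotation used here and were not analysed. A probe set shared between Thbs1 and Pald1 was left out as well.

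The cells were immortalized lymphatic endothelial cells from mouse skin (imLECs), the cells that line lymphatic vessels. They were isolated by FACS from H-2Kb-tsA58 mice (ImmortoMice), which carry a temperature-sensitive large T antigen of the virus SV40, labelled normal and healthy, with no age given. All 3 cultures were expanded at 33 °C with interferon-gamma on dishes coated with collagen and human plasma fibronectin, then kept for 3 days at 37 °C without interferon-gamma so that the T antigen was degraded. They differ in passage number, 13, 14 or 18, and each passage is represented by 1 culture and 1 array, so that passage and culture cannot be told apart. The question that the design allows is how far the expression of these genes varied among cultures of 1 cell line, and the samples form 1 group without a control.

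Fibronectin is secreted as a dimer that cells assemble into fibrils through integrin receptors, and endothelial cells deposit it beneath themselves. Matricellular proteins such as tenascin C, periostin, SPARC and the thrombospondins are secreted into the matrix but serve mainly to modulate adhesion and signalling rather than to bear load. Fibulins and fibrillins take part in elastic fibres and microfibrils, which in skin anchor lymphatic vessels to the surrounding tissue.

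For 4 of the genes whose values differed between cultures, the 250 bases before an annotated transcription start are shown, so that the regulatory sequence can be read beside the levels given further on. The sequences are those of RefSeq on GRCm38.p6, read 5′ to 3′ on the strand of the gene. RefSeq windows were found for 6 of the 8 measured genes. The windows were searched on both strands for the TATA box TATAAA, the AP-1 site TGANTCA, the TEAD site GGAATG and CAGAC, the core of the CAGA box bound by SMAD proteins, and capitals mark every match.
Postn, chr3:54360857-54361106, plus strand: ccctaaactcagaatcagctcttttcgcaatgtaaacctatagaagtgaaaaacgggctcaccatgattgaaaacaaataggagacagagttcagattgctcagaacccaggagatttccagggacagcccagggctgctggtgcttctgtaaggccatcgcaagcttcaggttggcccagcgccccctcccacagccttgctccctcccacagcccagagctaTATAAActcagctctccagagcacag
Tnc, chr4:64047016-64047265, minus strand: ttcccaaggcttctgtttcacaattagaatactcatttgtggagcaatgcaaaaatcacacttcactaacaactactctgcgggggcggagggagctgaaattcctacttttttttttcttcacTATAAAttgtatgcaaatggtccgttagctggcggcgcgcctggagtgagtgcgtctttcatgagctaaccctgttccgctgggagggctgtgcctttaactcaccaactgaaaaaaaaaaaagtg
Thbs2, chr17:14694263-14694512, minus strand: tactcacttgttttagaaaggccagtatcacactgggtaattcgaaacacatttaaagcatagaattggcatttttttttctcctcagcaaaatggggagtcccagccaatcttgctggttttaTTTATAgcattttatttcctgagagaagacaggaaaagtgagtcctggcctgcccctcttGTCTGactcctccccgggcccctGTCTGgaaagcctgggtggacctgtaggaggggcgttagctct
Fbln5, chr12:101819120-101819369, minus strand: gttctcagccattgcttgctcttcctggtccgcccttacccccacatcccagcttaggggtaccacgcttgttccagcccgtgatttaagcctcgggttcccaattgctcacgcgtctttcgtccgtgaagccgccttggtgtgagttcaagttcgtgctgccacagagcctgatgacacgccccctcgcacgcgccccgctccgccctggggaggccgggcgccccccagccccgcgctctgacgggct

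In this Postn window the TATA box begins 26 bases before the start. The Tnc window holds TATAAA at 126 bases before the start, and the Thbs2 window holds it on the other strand, also at 126 bases, with 2 matches to CAGAC on that strand. None of these letters occurs in the Fbln5 window shown, and the window of the second annotated Fbln5 start holds 2 matches to CAGAC. Of all 32851 promoter windows of this length, 12.4% hold TATAAA, 6.75% TGANTCA, 12.6% GGAATG and 42.2% CAGAC, so that the last is common by its shortness. The windows of the other annotated starts of Postn and Tnc hold 1 match to CAGAC each. That of Tnc overlaps the window shown and holds the same copy of TATAAA, which lies 205 bases before its start. None of these other windows of Postn, Tnc and Fbln5 is printed. A match is a run of letters and not a measured binding site.

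Intensities are given on a linear scale, as deposited, and differences on the log2 scale. Each gene is given by its brightest probe set, the one whose log2 intensities had the highest mean. A gene counted as detected when that probe set lay above a floor on all 3 arrays, the floor being the 95th percentile of 41 genes restricted to other tissues. The floors were intensities of 32.3, 36.5 and 41.6 at passages 13, 14 and 18, and 9601 of 18194 genes (52.8%) were detected. Of the 8 measured genes of the group, 6 were detected: Fn1, Tnc, Thbs1, Sparc, Fbln1 and Fbln5. Thbs2 was above the floor on 2 arrays and Postn on 1.

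In the 3 cultures 8 of 8 pan-endothelial and 6 of 8 lymphatic endothelial markers were detected, with the lymphatic factor Prox1 above the floor on 2 arrays. All 8 pan-endothelial markers were lower at passage 18 than at 13, where 4860 of the 9601 detected genes were. Of the 8, only Esam was at least 2-fold lower, as 2.14% of detected genes were. The lymphatic hyaluronan receptor gene Lyve1 read 1375, 2929 and 163 at passages 13, 14 and 18. The passage 18 array had the highest ratios in its RNA quality controls. The Gapdh control read at the 3′ end was 19.4 times that at the 5′ end there, against 8.59 at passage 13 and 7.10 at passage 14. For the Actb control the difference was smaller, with 1.42 times at passage 18 against 1.18 at passage 13 and 1.20 at passage 14. The Gapdh ratio also differed between passages 13 and 14, and the part of RNA quality in the differences between arrays was not tested.

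**Figure D1:**
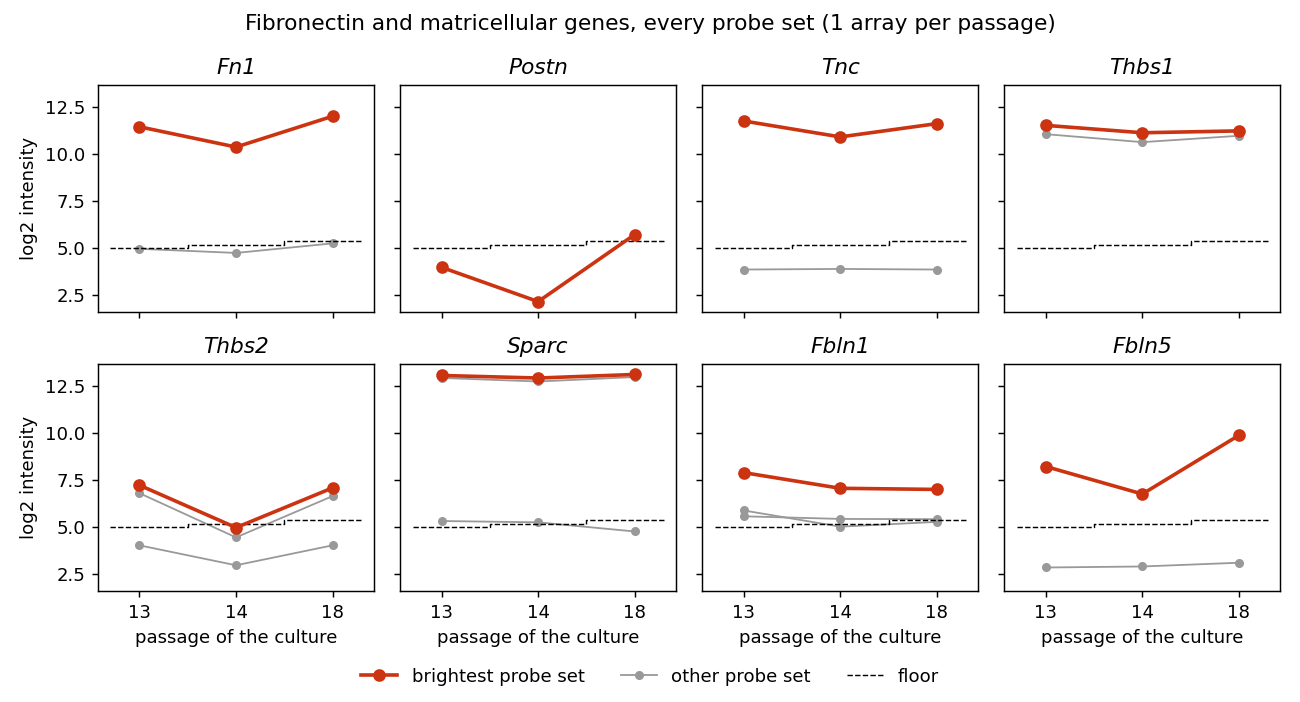
Log2 intensity (vertical axis) of every probe set of the 8 measured genes in the cultures of passages 13, 14 and 18 (horizontal axis, 1 array each), with the brightest probe set of a gene in red, its other probe sets in grey and the floor dashed. The brightest probe set was lowest at passage 14 for Fn1, Tnc, Thbs1, Thbs2, Sparc and Fbln5, and the drop is wide for Thbs2 and Fbln5 and narrow for Sparc.

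Fn1, fibronectin itself, read 2799 at passage 13, 1327 at passage 14 and 4128 at passage 18 by its brightest probe set. The passage 14 culture was the low one and the passage 18 culture the high one, with a mean log2 intensity of 11.28 ± 0.83 (SD, n = 3). Passage 14 was 2.11-fold below passage 13 and 3.11-fold below passage 18, while passage 18 was 1.47-fold above passage 13. The spread of Fn1 over the cultures was larger than that of 95.5% of detected genes, for which the median SD was 0.24. In RNA from a whole culture, fewer cells expressing a gene and less RNA per cell cannot be told apart. A dim Fn1 probe set, under the floor on every array, held the same order at 31.2, 26.9 and 38.2.

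Tnc encodes tenascin C, a matricellular protein that modulates adhesion to fibronectin. Intensities of the brightest Tnc probe set were 3465, 1927 and 3144 in the order of passages 13, 14 and 18, a mean log2 intensity of 11.43 ± 0.45 (SD, n = 3). Passages 13 and 18 lay close together, 1.10-fold apart, and passage 14 was 1.80-fold below passage 13 and 1.63-fold below passage 18. The other Tnc probe set stayed under the floor at about 14.6 to 14.9.

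Thbs1 and Thbs2 encode thrombospondins, secreted glycoproteins that inhibit blood vessel growth through the receptors CD36 and CD47. Thbs1 read 2949 at passage 13, 2246 at passage 14 and 2406 at passage 18, a mean log2 intensity of 11.30 ± 0.20 (SD, n = 3). A second Thbs1 probe set read 2132, 1589 and 2008, so both placed passage 14 lowest and passage 13 highest, with at most 1.34-fold between any cultures. The Thbs1 SD was smaller than the median of detected genes.

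Thbs2 had the same order as Thbs1 with wider differences. It read 151.5 at passage 13, 31.7 at passage 14 and 137 at passage 18, the passage 14 value being below the floor of that array. Against that floor, Thbs2 was at least 4.15-fold higher at passage 13 and at least 3.76-fold higher at passage 18 than at passage 14. A second Thbs2 probe set gave 113, 22.1 and 101, again under the floor at passage 14, and passages 13 and 18 differed by no more than 1.11-fold in either. The remaining Thbs2 probe set, under the floor on every array, was also lowest at passage 14. The difference in size between the thrombospondin genes was not tested, as each passage has 1 array.

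Sparc encodes a collagen-binding glycoprotein and varied least of the detected genes of the group. It read 8620, 7846 and 8938 at passages 13, 14 and 18, a mean log2 intensity of 13.05 ± 0.10 (SD, n = 3), and 13.4% of detected genes had a smaller SD. The second bright probe set read 7867, 6905 and 8133 in the same order. The dim Sparc probe set, at 40.5, 38.6 and 27.6, was lowest at passage 18, where it lay under the floor.

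Postn, periostin, is a matricellular protein made mainly by fibroblasts and osteoblasts. Its single probe set read 15.8 at passage 13, 4.47 at passage 14 and 52.8 at passage 18. Only the passage 18 value exceeded its floor. Against the floors of the other arrays, Postn was at least 1.64-fold higher at passage 18 than at passage 13. By the same rule it was at least 1.45-fold higher than at passage 14. The order of passages 13 and 14 cannot be read, since both were under the floor.

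The fibulins did not share an order. Fbln5, which binds elastin and integrins and is needed for elastic fibre assembly, read 301 at passage 13, 109 at passage 14 and 952 at passage 18, a mean log2 intensity of 8.30 ± 1.56 (SD, n = 3). It had the widest spread of the detected genes of the group, and 99.7% of all detected genes had a smaller SD. Passage 18 was 3.16-fold above passage 13 and 8.70-fold above passage 14, and passage 14 was 2.76-fold below passage 13. The other Fbln5 probe set was under the floor on every array, at 7.31, 7.58 and 8.71, so the pattern rests on a single probe set.

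Fbln1, a fibulin of basement membranes and a ligand of fibronectin, was high at passage 13 alone. It read 241, 135 and 130 at passages 13, 14 and 18, a mean log2 intensity of 7.34 ± 0.50 (SD, n = 3). Passage 13 was 1.78-fold above passage 14 and 1.86-fold above passage 18, and the latter pair lay within 1.04-fold. A second probe set had the same high culture, at 59.7, 32.9 and 39.2, and only that culture above the floor, and the third was nearly flat at 48.2, 43.7 and 43.3.

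The brightest probe set was thus lowest at passage 14 for 6 of the 8 measured genes, Fn1, Tnc, Thbs1, Thbs2, Sparc and Fbln5, of which Thbs2 was under the floor there. Fbln1 was not, and the low culture of Postn cannot be read. Some of these orders rest on small gaps. Passage 14 lay 1.07-fold below passage 18 in Thbs1 and 1.10-fold below passage 13 in Sparc. In Fbln1, passages 14 and 18 were 1.04-fold apart. Of the 6 detected genes, 5 were lowest at passage 14. Among all detected genes, 39.0% were lowest at passage 14, 37.4% at passage 18 and 23.6% at passage 13. The highest culture was passage 18 for 4 measured genes (Fn1, Postn, Sparc and Fbln5) and passage 13 for the other 4. Of these, Postn and Thbs2 were not above the floor on all 3 arrays. Among all detected genes, 38.0% were highest at passage 18 and 25.9% at passage 13. No gene of the group was highest at passage 14, where 36.1% of all detected genes were. All 6 detected genes were lower at passage 14 than at passage 13, where 51.2% of all detected genes were, with a median log2 difference of -0.84 against -0.01 over all detected genes. Between passages 18 and 13 the median was -0.04, with 3 genes lower and 3 higher, against -0.01 over all detected genes. Each array enters a pair of these differences, and the low values at passage 14 therefore appear in both comparisons with it.

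**Figure D2:**
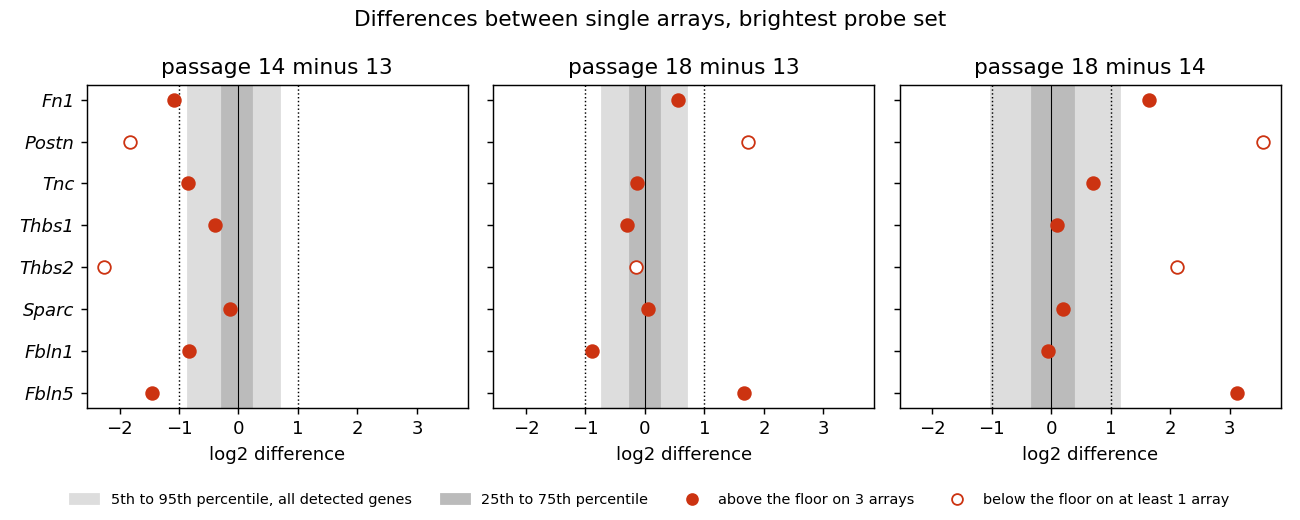
Log2 difference (horizontal axis) between single arrays for the brightest probe set of each gene, with filled points for genes above the floor on 3 arrays and open points for Postn and Thbs2, whose differences against an array under the floor are not measured sizes. Grey bands hold the 25th to 75th and the 5th to 95th percentile of all detected genes, and dotted lines mark 2-fold. Fn1 and Fbln5 are past 2-fold in the comparisons of passage 14 with both other cultures.

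At a threshold of 2-fold, 2 of the 6 detected genes, Fn1 and Fbln5, were lower at passage 14 than at passage 13, where 3.3% of detected genes were. The median of each gene's probe sets in place of the brightest gave 0, with log2 differences of -0.65 for Fn1 and -0.70 for Fbln5, since the median takes in the dim probe sets. Fbln5 was the 1 gene at least 2-fold higher at passage 18 than at 13 (2.46% of detected genes), where the median of probe sets gave a log2 difference of 0.96. Fn1 and Fbln5 were at least 2-fold higher at passage 18 than at 14 (6.85% of detected genes). None of the 6 was 2-fold higher at passage 14 than at 13, or 2-fold lower at passage 18 than in either other culture, where 1.97%, 2.14% and 5.2% of detected genes were. With values under the floor set to the floor, Thbs2 joined the genes lower at passage 14, making 3 of 7 genes against passage 13 (3.51% of genes tested so) and 3 of 8 against passage 18 (7.39%).

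A straight line over passage number was fitted by limma to the 10254 genes whose mean lay above the mean floor, which took in 7 of the 8 measured genes. With 3 arrays, a single gene leaves 1 residual degree of freedom, and limma shares the spread across genes. No gene passed an adjusted p of 0.05 (0 of 10254, 0.0%), and the smallest adjusted p was 0.900, with 363 genes at an unadjusted p under 0.05 and none of the 7 among them. Fbln5 had the steepest slope of the 7, 0.46 ± 0.20 log2 units per passage (SE, n = 3 arrays, limma adjusted p = 0.900). Without the passage 18 array that slope was -1.46, as passage 14 then stands against passage 13. Slopes were positive in 5 of the 7 genes and in 49.2% of all genes tested. The low values at passage 14 do not follow a straight line.

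The genes whose pattern lay nearest to that of Fbln5 were Fhl1, Maf and Pcdhb16. Nearness was the Euclidean distance over the log2 differences of passages 14 and 18 from passage 13, among 9595 other detected genes and over 3 arrays. Fhl1, a LIM-domain protein of muscle and other cells, was at a distance of 0.11, with log2 intensities of 7.10, 5.74 and 8.74. Maf, a transcription factor also expressed in lymphatic endothelium, was at 0.12 (7.38, 6.04 and 9.00), and the protocadherin gene Pcdhb16 at 0.16 (6.66, 5.35 and 8.40). All 3 were lowest at passage 14 and highest at passage 18, as the measure of nearness requires. Of the other probe sets of these genes, the pair above the floor on 3 arrays, both of Maf, read 6.34, 5.73 and 6.55 and 5.53, 5.76 and 5.44, so the former had the order of the brightest probe set with smaller differences and the latter did not have it.

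Fibronectin is bound and assembled through integrins and the transmembrane proteoglycan syndecan-4. Of 12 genes for these receptors and for assembly, 9 were detected, against 52.8% of all genes. Itgb6, Itgb8 and Itga9 were under the floor on every array. Relative to passage 13, 7 of the 9 were lower at passage 14, none of them 2-fold, with a median log2 difference of -0.31 (51.2% and -0.01 over all detected genes). Itgav, Itgb5 and Sdc4, 3 of the 9, were at least 2-fold higher at passage 18 than at 14, where 6.85% of detected genes were. Itgb5, a vitronectin-binding integrin chain, read 112, 66.7 and 280 at passages 13, 14 and 18, and Itgav, its partner chain, read 2778, 1818 and 3959. Both had the order of Fn1, and the other Itgb5 and Itgav probe sets above the floor on 3 arrays also put passage 14 lowest. Sdc4, syndecan-4, was high at passage 18 alone (859, 784 and 1639).

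Other chains of fibronectin receptors differed in order. Itgb1 had that of Fn1 (3608, 2917 and 4571), whereas Itgb3, which pairs with Itgav, read 3461, 2152 and 1747. Itga5, the alpha chain that pairs with Itgb1 to bind fibronectin, read 215, 250 and 173, highest at passage 14. Itga4, the chain that binds an alternatively spliced stretch of fibronectin, read 656, 597 and 307, and was lower at passage 18 than at 13 by 2.14-fold. The other Itga4 probe sets above the floor on 3 arrays, at 314, 332.5 and 176.5, at 347, 402 and 248, and at 212.5, 248 and 148, were also lowest at passage 18 but highest at passage 14. Itga8 read 121, 122 and 82.7. None of these differences was tested, as each passage has 1 array.

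Of 6 receptors of the matricellular proteins, 4 were detected, against 52.8% of all genes. Cd47, the thrombospondin receptor, was highest at passage 14 (2313, 3524 and 2486), and all 5 of its probe sets put passage 14 above passage 13. Cd36, the other thrombospondin receptor, was under the floor on every array. Stab1, a scavenger receptor that takes up SPARC and marks lymphatic and sinusoidal endothelium, read 416, 215 and 164, lower at passage 18 than at 13 by 2.54-fold. Cacna2d1, a calcium channel subunit that binds thrombospondins, read 390, 176 and 307. Its other probe sets above the floor on 3 arrays read 148, 53.8 and 266, and 151.5, 54.2 and 118. All put passage 14 lowest, but the former put passage 18 highest. Cd44, which binds hyaluronan and osteopontin, read 1676, 1310 and 1174.

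Of 23 further matricellular genes, 5 were detected, against 52.8% of all genes: Fstl1 and 4 genes of the CCN family, Ccn1, Ccn2, Ccn3 and Ccn4. Most other thrombospondin, tenascin and SPARC family genes stayed low, with Thbs4, Comp, Tnxb, Tnr, Tnn, Sparcl1 and Smoc2 under the floor on every array and Thbs3 and Smoc1 above it at passage 18 alone. Ccn2 (connective tissue growth factor) read 5898, 2718 and 6113 and Ccn4 read 534.5, 254 and 607. Each was at least 2-fold lower at passage 14 than in either other culture. Over all detected genes, 3.3% were at least 2-fold lower at passage 14 than at 13. At least 2-fold higher at passage 18 than at 14 were 6.85%. Ccn1 read 3393, 2001 and 3390, and Fstl1, a secreted relative of SPARC, read 5725, 4102 and 7697. Passage 14 was again the low culture in these 4 of the 5 genes, as in 39.0% of all detected genes. Ccn3 had the opposite order, at 300.2, 592 and 130, with a second probe set at 247, 502 and 106. The median log2 difference of the 5 genes was -0.76 between passages 14 and 13 and 0.05 between passages 18 and 13. Over all detected genes it was -0.01 in both comparisons.

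**Figure D3:**
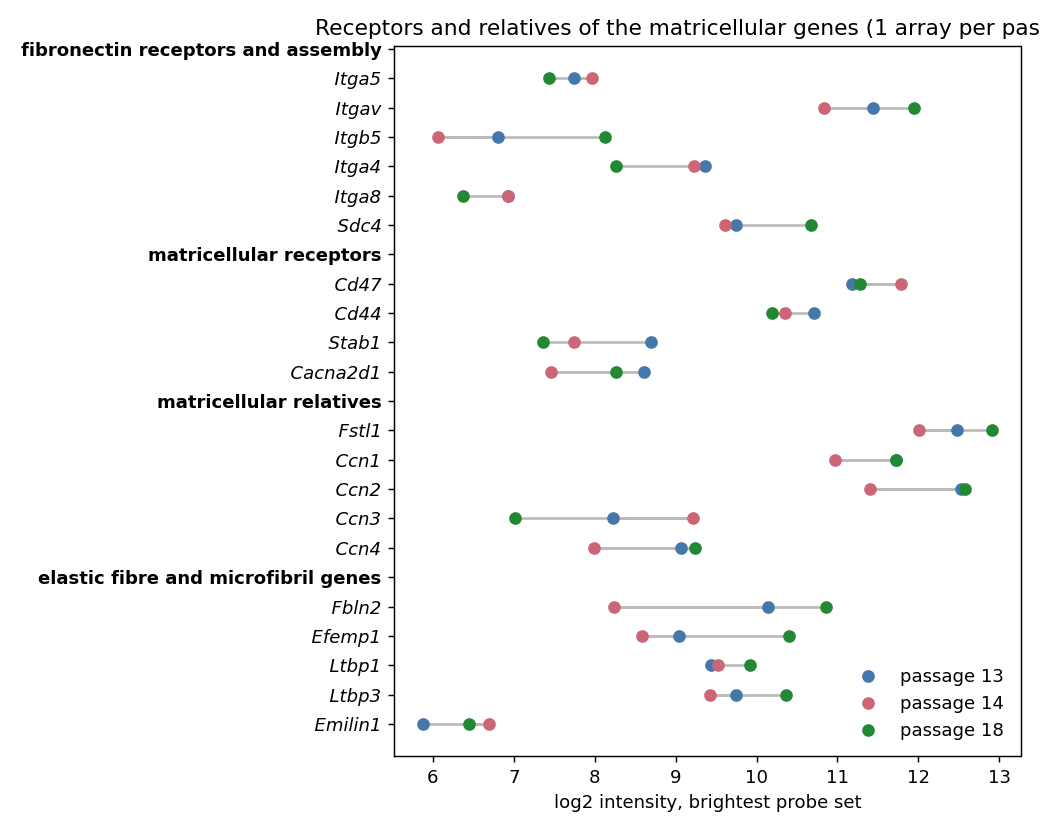
Log2 intensity (horizontal axis) of the brightest probe set of receptors, matricellular relatives and elastic fibre genes on the arrays of passages 13 (blue), 14 (red) and 18 (green). Red points lie leftmost for Itgav, Itgb5, Ccn2, Ccn4 and Fbln2 and rightmost for genes such as Itga5, Cd47, Ccn3 and Emilin1.

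Of 15 measured genes of elastic fibres and microfibrils, 5 were detected, against 52.8% of all genes. Eln, the elastin gene, was under the floor on every array, as were Fbn2, Mfap4 and Mfap5. Fbln2, another fibulin, read 1126 at passage 13, 301.5 at passage 14 and 1859 at passage 18, so that passage 14 was 3.73-fold below passage 13 and 6.17-fold below passage 18. Efemp1, also called fibulin-3, read 528, 384.5 and 1352. Fbln2 and Efemp1 thus had the order of Fbln5, and Fbln1 did not. Ltbp3, which binds latent TGF-beta, read 862, 685 and 1315, and Ltbp1 read 693.5, 736 and 971. Emilin1, a glycoprotein of the anchoring fibres of lymphatic vessels, was highest at passage 14 by its brightest probe set (58.6, 103 and 87.1) and lowest there by its second (45.8, 37.7 and 39.9), which was under the floor at passage 18.

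The summed levels of fibroblast and of mural cell markers were also lowest at passage 14, though not every marker was. The summed intensity of 8 mural and smooth muscle markers, 3 of them detected, was 6195, 1095 and 7375 at passages 13, 14 and 18, and the sum was made up largely by Acta2 (1467, 308 and 5289) and Tagln (4535, 619 and 1756), which had opposite orders at passages 13 and 18. Myh11, Rgs5 and Cspg4 were under the floor on every array. The sum of 7 fibroblast markers, again with 3 detected, was 3105, 1771 and 4126, with Pdgfra and Lum under the floor on every array. Thy1 made up most of that sum at passages 13 and 14 (2496, 1414 and 1723), Col1a1 read 263, 92.8 and 1228, and Col3a1, at 199, 203 and 776, was not lower at passage 14 than at 13. Pan-endothelial markers summed to 17642 at passage 13, 16691 at passage 14 and 12326.5 at passage 18, and lymphatic endothelial markers to 10569.5 at passage 13, 9166 at passage 14 and 6610 at passage 18. The lymphatic sum covers markers of opposite orders. Of the 6 detected, Pdpn (4615, 1933 and 3715) and Foxc2 (783, 267 and 955) were at least 2-fold lower at passage 14 than at 13. Lyve1 and Sox18 (599, 1236 and 235) were at least 2-fold higher there. Over all detected genes the shares were 3.3% and 1.97%. Leukocyte markers, with 2 of 6 detected, summed to 442, 448 and 179, and Ptprc, Adgre1 and Itgam were under the floor on every array. Keratinocyte markers, with 1 of 4 detected, summed to between 89.8 and 91.7. The part of other cell types in the levels of Fn1, Fbln5, Thbs2 and Postn was not tested.

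**Figure D4:**
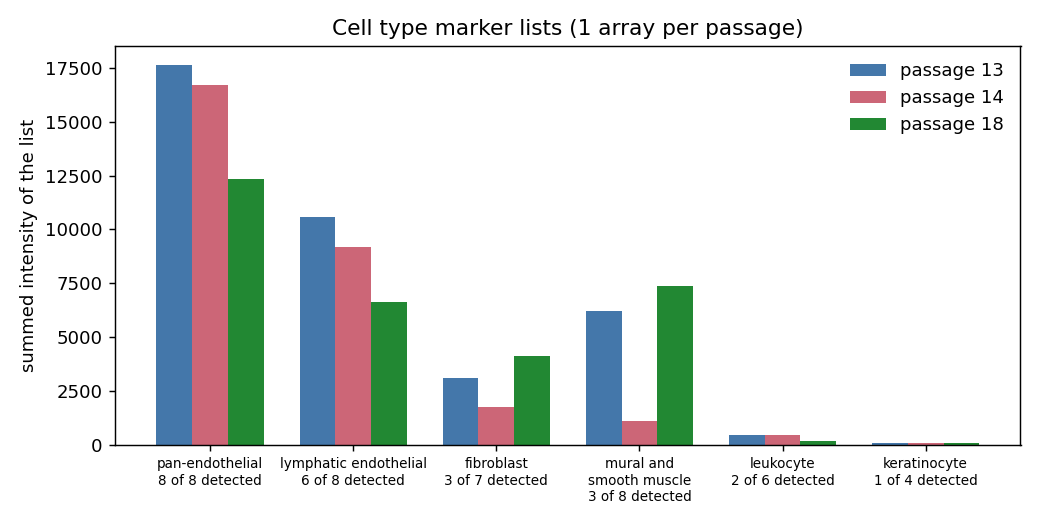
Summed linear intensity (vertical axis, from 0) of 6 cell type marker lists on the arrays of passages 13 (blue), 14 (red) and 18 (green), with the number of markers above the floor on 3 arrays under each list. The fibroblast and the mural lists are lowest at passage 14, and both endothelial lists are lowest at passage 18.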

How the data were processed

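Transcript levels were measured on a 1-colour array in 3 imLEC cultures, 1 each at passages 13, 14 and 18. The authors deposited 1 linear signal intensity per probe set and array, from amplified, biotin-labelled cDNA per the labels' protocols, and MAS5 is the tool in the submitters' processing notes, where its part is not stated. No other step is named in the sources used. Array medians were 25.7, 26.0 and 26.3, so the values were taken as already scaled and only turned to log2. Gene names came from the platform annotation, updated through RefSeq. Of 45101 probe sets, 34958 had 1 gene and 932 several, which were given no name, and 9211 are unnamed here.

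The floor list held 41 measured genes, after Apoa2, which read 7.02 to 8.08 on the log2 scale, was taken out once its values were seen. Camk2a and Prm1 of the list passed the detection rule. The trend was computed by limma 3.58.1 under R 4.3.3 (intensity trend, Benjamini-Hochberg). It was also run on simulated data with known slopes, all steeper than that of Fbln5, in noise of a common SD. That run does not show how well slopes of the size seen here are measured. The arrays' number limits precision, and limma's p-values measure only the spread between these cultures.

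All 8 measured genes are named, with, from each related list, up to 4 detected genes of the widest and 2 of the narrowest range, and the 3 genes nearest the member of widest range. Genes under the floor, undetected markers and examples within lists are named beside that rule. The genes and lists were chosen with earlier results of these data known.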

Additional observations from a re-analysis of the deposited data

How the results depend on the processing

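The same 6 genes were detected with the floor at the 99th percentile, with Apoa2 in the floor list, with quantile normalization, median centring or 16 added before log2, and with the median of probe sets. They were also the detected genes without the array of passage 13 or without that of passage 18. Thbs2 became the seventh with the floor at the 90th percentile, without the probe sets open to cross-hybridisation and without the array of passage 14. In each of the 9 settings that kept 3 arrays and could give the order, 6 measured genes were lowest at passage 14 and above the floor at passages 13 and 18. The median of probe sets lowered the median log2 level of the 8 measured genes from 9.79 to 6.82 and left 0 genes 2-fold lower at passage 14 than at 13 and 0 genes 2-fold higher at passage 18 than at 13, because it averages in probe sets under the floor. Leaving out 1 array gave 6 to 7 detected genes, a median level of 9.21 to 10.2 and a Fbln5 slope of -1.46 to 0.78. With 2 arrays left the slope has no test. No gene passed the trend in any setting fitted with 3 arrays, the smallest adjusted p lying between 0.890 and 0.945. The floor list with Apoa2 and the setting of dim values to the floor were chosen after seeing the data. Dim probe sets limit Postn and Thbs2, whose values under the floor show only that the level lay below that floor. No paired analysis was possible because the design has a single group.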
